A study of Mus musculus with 3 samples.

Results

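Processed pseudogenes were taken as the genes whose GENCODE biotype is processed_pseudogene or transcribed_processed_pseudogene. They number 8007 of the 50600 genes in the deposited count files, 7775 of the first biotype and 232 of the second. Each was placed by its exon coordinates in 1 of 3 classes. The opposite-strand class (222 members, 2.77%) shares exon bases with a gene on the other strand, the same-strand class (886 members, 11.1%) lies inside the span of a gene on its own strand, and the class called neither (6899 members, 86.2%) does neither. The last was split, after its values were seen, into 1250 members that lie within the span of a gene on the other strand but share no exon base with it and 5649 outside every gene span. In all, 7199 members have a single exon.

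A processed pseudogene arises when an mRNA is reverse transcribed and its copy is inserted elsewhere in the genome, a reaction that in mammals is carried out by the enzymes of LINE-1 elements. The copy carries the spliced exons of its parent gene without the parent's promoter, so most copies are not transcribed from a promoter of their own. Genes with abundant mRNA in the germ line, such as those of ribosomal proteins and Gapdh, have left many copies, and because a copy and its parent share long stretches of sequence, a short read from one can align to the other.

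The RNA came from T-helper 1 (Th1) cells, CD4 T cells differentiated in culture, as primary cells from C57BL/6NJ mice of unknown age whose sex was not collected. There is a single group of 3 libraries, labelled biological replicates 1, 2 and 3 and carrying the same donor entry, so no condition was compared. Separate animals or cultures are not stated for them, and the p-values given here therefore measure no more than the spread among the 3 libraries, part or all of which may be technical. The assay is called total RNA-seq, while the library protocol in the labels is for polyA RNA.

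The libraries held 3553547, 2945353 and 3369468 counts. Where a gene has none, up to 3 counts are still compatible with counting error, which is 0.844, 1.019 and 0.890 CPM (counts scaled to the library total) in replicates 1, 2 and 3. The 6 T cell markers all had 10 or more counts in every library, with sums of 2570, 1337 and 2223. Of 5 Th1 markers 2 reached that level, Stat4 (52, 23 and 33) and Il12rb2 (90, 105 and 114). Il12rb2 shares exon bases with Serbp1 on the other strand. Ifng and Cxcr3, defining genes of the lineage, had at most 2 counts in any library. Of 17 markers of other cells 10 were at 0 throughout, 14 had at most 3 counts, and the list summed to 1480, 1460 and 1524, nearly all of it on Csf1r (1429, 1418 and 1460), a macrophage receptor gene that shares exon bases with Hmgxb3 on the other strand. The CD8 T cell marker Cd8b1 (30, 20 and 36) and the B cell marker Cd79a (19, 18 and 22) also had 10 or more counts in every library. Neither shares exon bases with an opposite-strand gene. These are bulk libraries, in which fewer cells of a type and less RNA per cell cannot be told apart.

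Read pairs were counted by strand, and the sources used here do not give which strand of the RNA the library kit keeps. A pair counted on a member and a pair from the gene on the other strand therefore cannot be told apart, and the opposite gene is given below beside the members described in full. Pairs that align to several places are a further limit for copies that match their parent closely.

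The span of that likeness is shown by 5 members with values described below, each above the same 150 bases of its parent's coding sequence. The windows lie at chr6:99878185-99878334 (minus strand), chr7:45325235-45325384 (plus strand), chr17:47621436-47621585 (minus strand), chr4:148569196-148569345 (minus strand) and chr3:121380367-121380516 (minus strand) of mm10, 5′ to 3′ from GENCODE transcripts, with the bases that differ in capitals.
Tpt1-ps3: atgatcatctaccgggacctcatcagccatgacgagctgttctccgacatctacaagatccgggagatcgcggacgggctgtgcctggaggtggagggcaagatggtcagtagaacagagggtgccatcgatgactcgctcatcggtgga
Tpt1: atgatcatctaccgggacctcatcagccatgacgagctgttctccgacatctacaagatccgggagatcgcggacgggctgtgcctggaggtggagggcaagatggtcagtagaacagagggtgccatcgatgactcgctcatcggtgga
Rpl14-ps1: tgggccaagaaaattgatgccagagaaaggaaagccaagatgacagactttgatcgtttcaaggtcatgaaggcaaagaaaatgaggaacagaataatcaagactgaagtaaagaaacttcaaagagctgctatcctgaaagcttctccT
Rpl14: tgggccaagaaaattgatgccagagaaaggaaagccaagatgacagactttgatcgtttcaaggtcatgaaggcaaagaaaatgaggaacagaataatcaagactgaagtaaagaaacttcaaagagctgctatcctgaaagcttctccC
Kpna2-ps: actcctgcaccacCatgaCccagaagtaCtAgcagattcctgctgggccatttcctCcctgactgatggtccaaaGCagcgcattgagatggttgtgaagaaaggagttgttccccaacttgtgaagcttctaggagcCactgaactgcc
Kpna2: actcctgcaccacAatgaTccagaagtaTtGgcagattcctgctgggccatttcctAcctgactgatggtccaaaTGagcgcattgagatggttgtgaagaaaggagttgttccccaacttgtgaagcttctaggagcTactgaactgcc
Gm13204: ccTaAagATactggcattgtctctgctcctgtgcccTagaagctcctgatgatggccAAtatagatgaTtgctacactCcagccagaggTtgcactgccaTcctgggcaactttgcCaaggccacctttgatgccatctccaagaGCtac
Rps2: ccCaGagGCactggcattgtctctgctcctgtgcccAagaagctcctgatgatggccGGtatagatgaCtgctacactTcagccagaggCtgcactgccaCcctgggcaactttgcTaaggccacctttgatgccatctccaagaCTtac
Gm5711: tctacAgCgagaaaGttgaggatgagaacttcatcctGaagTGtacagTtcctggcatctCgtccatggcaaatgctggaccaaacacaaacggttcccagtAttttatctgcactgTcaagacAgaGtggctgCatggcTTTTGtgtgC
Ppia: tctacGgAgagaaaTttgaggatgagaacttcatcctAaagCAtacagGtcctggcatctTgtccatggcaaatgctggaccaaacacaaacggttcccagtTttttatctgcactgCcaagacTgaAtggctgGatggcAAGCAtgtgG
Tpt1-ps3 is identical to Tpt1 over all 519 of its bases, so no read inside it has a base that tells the copy from the parent. The Rpl14-ps1 window has 1 difference and the longest identical run with Rpl14 is 419 bases. The windows of Kpna2-ps, Gm13204 and Gm5711 have 8, 14 and 19 differences, and their longest identical runs with Kpna2, Rps2 and Ppia are 77, 42 and 41 bases.

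Few processed pseudogenes had counts. No count was found on 6475 members in any library, and of the 1532 with at least 1 count, 1100 never rose above 3. In replicates 1, 2 and 3 there were 954, 903 and 967 members with counts, and they held 10939, 10224 and 10669 counts, or 0.324% ± 0.021 of all counts (SD, n = 3). Only 94 members, 1.17%, had 10 or more counts in every library, against 20.1% of all annotated genes and 39.3% of protein-coding genes. Of unprocessed pseudogenes, which arise by duplication of a gene with its introns, 0.412% did. The lowest library was at exactly 10 counts for 3 members just inside this threshold and at 9 counts for 7 just outside it.

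Those 94 members held 76.5% of all member counts, and the 5 with 1000 or more counts in total (Gm17040, Fgfr3-ps, 4930519F09Rik, Gm10653 and Kpna2-ps) held 31.1%. All 5 share exon bases with an opposite-strand gene. The transcribed biotype had 10 or more counts in every library for 6.47% of its members and the other biotype for 1.02%.

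The 3 position classes differed in how many members had counts. In the opposite-strand class 41 of 222 members (18.5%) had 10 or more counts in every library, in the same-strand class 2 of 886 (0.226%) and in the class neither 51 of 6899 (0.739%). Within the last, the members inside an opposite-strand gene reached this level in 28 of 1250 cases (2.24%) and those outside every gene in 23 of 5649 (0.407%). Genes that are not pseudogenes of this kind had the same order, with 54.2%, 1.32% and 19.0% for the 3 classes, so the order of the classes is not particular to the pseudogenes.

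**Figure D1:**
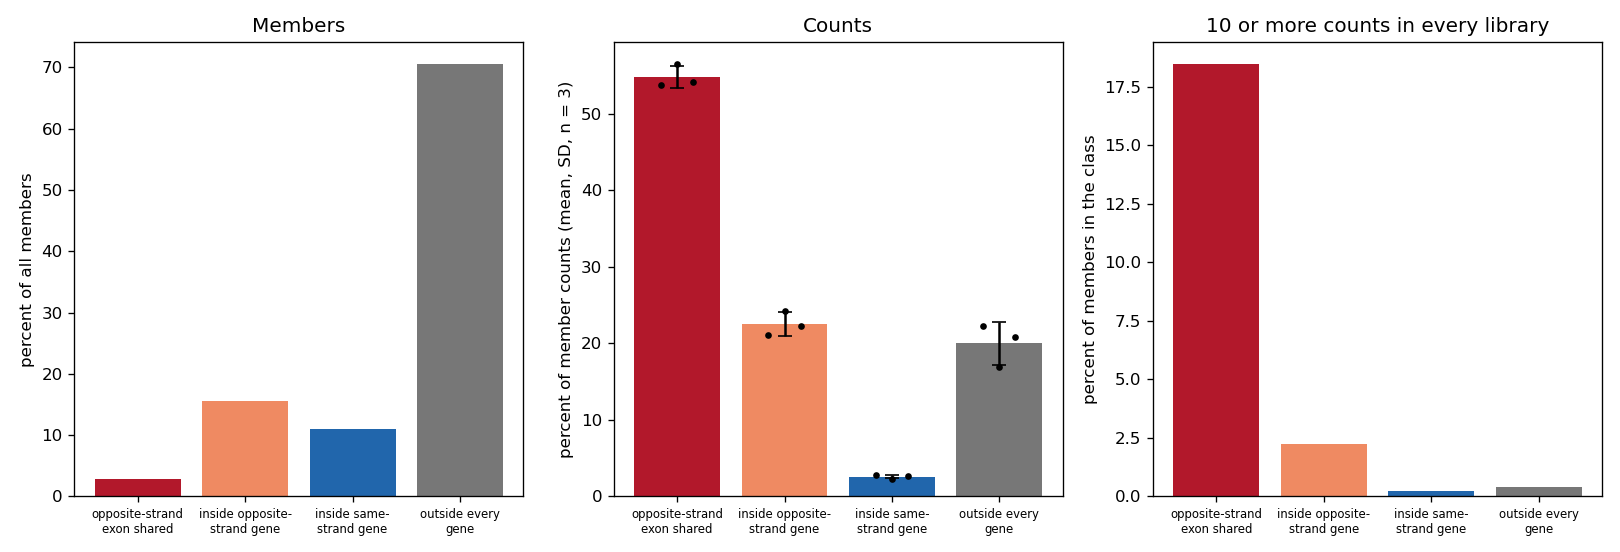
Share of all members, share of the counts on members (bars are means, error bars SD, points the 3 libraries) and share of each class with 10 or more counts in every library, for 4 position groups. The opposite-strand class is 2.77% of the members and holds 54.8% of their counts, while members outside every gene hold 20.01%.

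Summed over the class, opposite-strand members had 5884, 5778 and 5785 counts, which is 54.8% ± 1.46 (SD, n = 3) of the counts on members and 8.02 ± 0.730 CPM per kb of exon. Members inside an opposite-strand gene had 2313, 2479 and 2380 counts (22.6% ± 1.57) and members outside every gene 2439, 1729 and 2222 (20.01% ± 2.78). Same-strand members had 303, 238 and 282 counts (2.58% ± 0.228). Per kb of exon the last 3 groups stood at 0.912 ± 0.122, 0.157 ± 0.013 and 0.138 ± 0.004 CPM, and protein-coding genes as a whole at 7.58 ± 0.374 CPM. The ranges of the 3 libraries did not overlap between the opposite-strand class and any other group of members on this per-kb scale. Members outside every gene and same-strand members did not overlap either, but were close, at 0.143 to 0.167 and 0.134 to 0.141 CPM per kb. Genes that are not members had means of 23.2 (opposite-strand), 3.58 (neither) and 0.448 (same-strand) CPM per kb. The ranges of these classes did not overlap either. The separation of the opposite-strand class is therefore not particular to the pseudogenes, whose 8.02 CPM per kb was below that of other opposite-strand genes.

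The member with the highest level was Gm17040 (ENSMUSG00000091366.1, chr9:107292435-107297192, minus strand), a transcribed copy of Rpsa, which encodes a protein of the small ribosomal subunit, at 83.6% identity. It had 1377, 1494 and 1330 counts, or 374 ± 58.4 CPM per kb (SD, n = 3), more than the 170 ± 41.7 of Rpsa itself. Of its exon bases 261 (22.7%) are shared with Cish, the gene of a cytokine-induced suppressor of STAT signalling, and these lie in a non-coding transcript of Cish and in part in its 5′ UTR and coding exon. Cish had 212, 121 and 172 counts, or 7.88 ± 1.45 CPM per kb, below Gm17040 in every library.

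Fgfr3-ps (ENSMUSG00000103178.1, chr1:181091129-181092265, plus strand) is a copy of the fibroblast growth factor receptor gene Fgfr3 at 81.1% identity. It had 666, 658 and 632 counts (175 ± 18.2 CPM per kb), while Fgfr3 had 0, 0 and 3 counts, so these libraries held nearly no counts on the parent. All 1137 bases of Fgfr3-ps lie opposite the 3′ UTR of Nvl, which encodes an ATPase of ribosome biogenesis and had 180, 81 and 165 counts.

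4930519F09Rik (ENSMUSG00000090126.1, chr10:28880921-28923507, minus strand), a copy of the pyruvate dehydrogenase gene Pdha1 with 3 exons (90.1% identity), had 405, 425 and 438 counts (92.7 ± 10.9 CPM per kb). It shares 153 bases with the 3′ UTR of Themis, a gene of thymocyte selection and T cell receptor signalling that had 143, 59 and 104 counts. The pseudogene had more counts than Themis in every library.

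Gm10653 (ENSMUSG00000074250.11, chr9:62841477-62868000, minus strand), a copy of the ribosomal protein gene Rps2 at 91.3% identity with 5 exons, had 393, 358 and 390 counts (86.1 ± 4.07 CPM per kb). Cln6, which encodes a membrane protein of the endoplasmic reticulum and shares 181 bases of coding exon with it, had 13, 4 and 19 counts.

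Kpna2-ps (ENSMUSG00000083672.1, chr17:47620771-47622339, minus strand), whose sequence is shown above, had 471, 422 and 425 counts (85.4 ± 5.52 CPM per kb). Its parent Kpna2, the gene of the nuclear import receptor importin alpha, had 326, 143 and 277 counts (25.8 ± 7.90 CPM per kb) and ties as the closest match with Gm10184. The whole copy lies opposite a retained-intron transcript of Med20, a Mediator subunit gene with 49, 34 and 51 counts. The copy was thus above both its parent and its opposite gene in every library, per kb and in counts.

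The other 3 of the 8 highest in this class are short single-exon members whose bases are all shared. Gm27038 (ENSMUSG00000098121.1, chr17:94756698-94756872, minus strand; 86.9% identity to Rps2) had 61, 76 and 69 counts (121 ± 24.9 CPM per kb) opposite the pseudogene 2700099C18Rik (49, 22 and 37). B230207O21Rik (ENSMUSG00000106096.1, chr3:35973771-35974091, plus strand), which matched no parent and also overlaps the span of a gene on its own strand, had 135, 107 and 128 counts (117 ± 2.99 CPM per kb). It lies opposite a retained-intron transcript of Mccc1, a gene of leucine breakdown that had 45, 32 and 43 counts. Gm13331 (ENSMUSG00000081519.1, chr2:23508860-23509307, plus strand; 95.4% identity to the ubiquitin-conjugating enzyme gene Ube2d3) had 110, 117 and 98 counts (74.2 ± 12.7 CPM per kb) opposite the 3′ UTR of Spopl, a ubiquitin ligase adaptor gene with 116, 55 and 72 counts.

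In the same-strand class 2 members reached 10 counts in every library. Gm12941 (ENSMUSG00000084088.1, chr4:127046383-127046602, plus strand), without an assigned parent, had 20, 22 and 19 counts (28.4 ± 4.82 CPM per kb) inside the non-coding gene Gm12940, which had 1904, 1898 and 1840. Gm13509 (ENSMUSG00000081272.1, chr2:49308155-49309462, plus strand), a copy of the clathrin adaptor gene Ap2m1 at 99.7% identity, had 15, 26 and 12 counts (4.23 ± 2.19 CPM per kb). Its host Mbd5, a methyl-CpG-binding domain gene, had 40, 15 and 17 counts.

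Among members without shared opposite-strand exon bases the highest was Rpl14-ps1 (ENSMUSG00000046721.11, chr7:45324965-45325617, plus strand), a copy of the large-subunit ribosomal protein gene Rpl14 at 98.9% identity. It had 206, 171 and 221 counts (92.7 ± 6.70 CPM per kb) and lies in an intron of Trpm4, a cation channel gene on the other strand with 6, 3 and 3 counts. Rpl14 had 2062, 1526 and 2180 counts (352 ± 39.0 CPM per kb), so the parent was above its copy in every library.

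A further 3 members of this group, inside opposite-strand genes, lie less close to their parents than Rpl14-ps1 does. Gm13204 (ENSMUSG00000082860.1, chr4:148569056-148569876, minus strand; 86.6% identity to Rps2) had 181, 171 and 192 counts (67.4 ± 4.68 CPM per kb) inside Exosc10, a nuclear exosome ribonuclease gene with 299, 180 and 246. Gm12276 (ENSMUSG00000081944.1, chr11:62331421-62331721, plus strand; 81.9% identity to Gm10053, tied with the cytochrome c gene Cycs) had 30, 51 and 46 counts (43.6 ± 14.8 CPM per kb) inside the corepressor gene Ncor1 (908, 632 and 762). Gm17825 (ENSMUSG00000108681.1, chr6:71869212-71870005, minus strand; 90.9% identity to Rpl7a) had 60, 101 and 75 counts (30.8 ± 11.2 CPM per kb) inside Immt, a gene of mitochondrial inner membrane organization with 408, 247 and 401. In raw counts the hosts were lowest in replicate 2, the smallest library, while Gm12276 and Gm17825 were highest there.

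The other 4 of the 8 highest lie outside every gene. Gm5711 (ENSMUSG00000106455.1, chr3:121380259-121380679, minus strand), a copy of the cyclophilin A gene Ppia at 85.1% identity and the least like its parent of the sequences shown, had 79, 85 and 80 counts (59.3 ± 8.25 CPM per kb). Ppia had 1307, 650 and 1113 counts (87.3 ± 21.8 CPM per kb), so the copy kept its count in replicate 2 while the parent did not. Gm36189 (ENSMUSG00000107432.1, chr6:88882655-88883177, plus strand; 91.3% identity to Rpl17), 297 bases from an opposite-strand gene, had 66, 71 and 69 counts (40.3 ± 5.37 CPM per kb).

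Gm4617 (ENSMUSG00000096544.2, chr3:124385667-124385997, plus strand) is 99.1% identical to Ptma, the prothymosin alpha gene. It had 38, 30 and 57 counts (38.1 ± 11.3 CPM per kb) beside 3845, 3866 and 5750 on Ptma, and replicate 3 was the highest for both. Tpt1-ps3 (ENSMUSG00000084319.3, chr6:99877816-99878334, minus strand), identical to the translationally controlled tumor protein gene Tpt1, had 70, 25 and 67 counts (30.9 ± 12.6 CPM per kb) beside 2115, 1374 and 1924 on Tpt1, and in raw counts replicate 2 was the lowest for both.

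**Figure D2:**
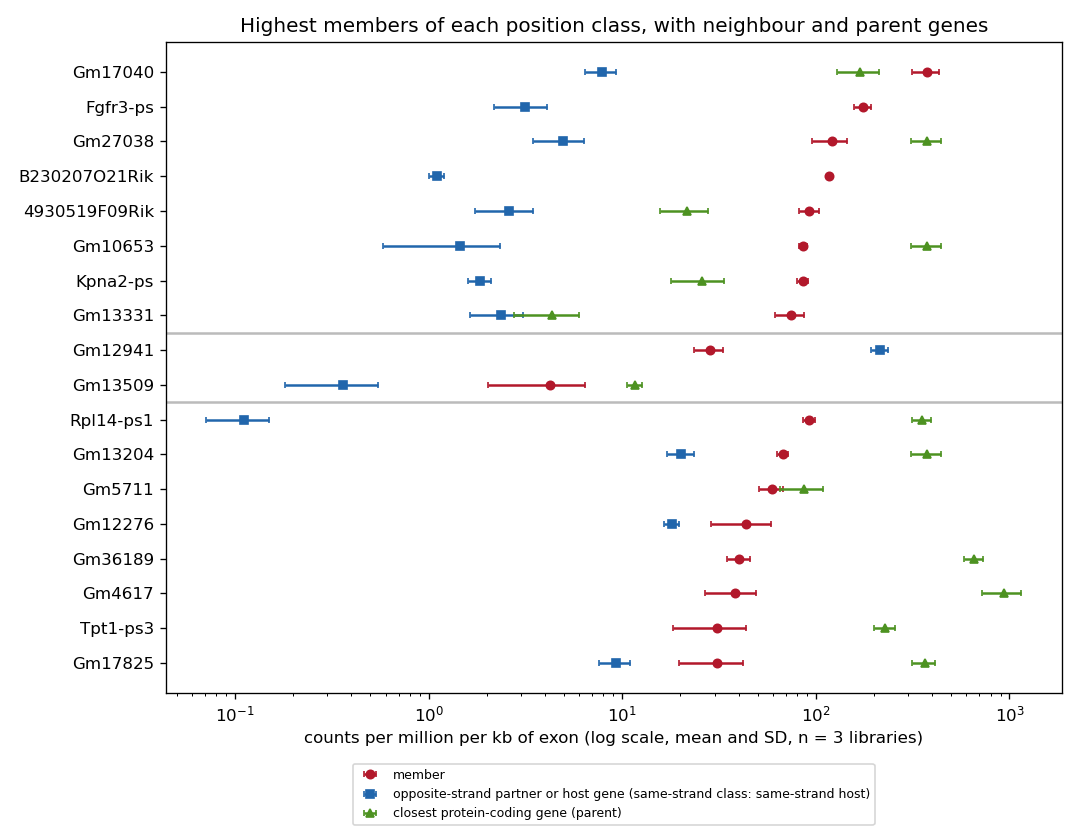
Levels of the highest members of the opposite-strand class (top), same-strand class (middle) and class neither (bottom), with the neighbour gene and the parent, in CPM per kb of exon on a log scale (mean and SD of 3 libraries; genes at 0 in any library are not drawn). All 8 opposite-strand members lie above their partner per kb, from 74.2 to 374 CPM per kb. They were chosen for their own high level per kb, which favours this position, so it describes them alone. In raw counts Gm13331 (110) was below its partner Spopl (116) in replicate 1.

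Across the 41 opposite-strand members with 10 or more counts in every library, the log2 ratio of member to partner per kb (0.5 counts added) had a median of 3.71 ± 0.32 (SD over n = 3 libraries). The member was above its partner in every library for 34 and below it for 4. Over the whole class of 222 the median was 0.85, a set that holds 119 members at 0, and since only members with counts can enter the first median, it is a description of them alone. The 28 members of this level inside an opposite-strand gene had a median ratio to that host of 0.38 ± 0.64, with 14 above and 8 below it in every library. That median was -0.08, 1.10 and 0.10 in replicates 1, 2 and 3, so its sign differed between libraries.

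What the partner's annotation holds at the shared bases differed among the 222. The shared bases lay mainly in a partner's 3′ UTR for 25 members, of which 10 had 10 or more counts in every library, in a 5′ UTR for 17 (3), in coding sequence for 13 (4) and in a non-coding transcript for 166 (24), and 1 member had no exon annotated there in M21. The last kind includes retained introns, as at Med20 and Mccc1. With a protein-coding partner 31 of 93 members (33.3%) had this level and with a partner of another type 10 of 129 (7.75%). Where all exon bases were shared it was 17 of 64, and where part was shared 24 of 158. Outside every gene, 6 of the 23 members with this level had an opposite-strand gene within 5000 bases, against 16.7% of all 5649 such members, and 6 of 23 had a same-strand gene within that distance, against 16.3%.

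Parents were sought among protein-coding transcripts. A parent at 80% identity or more over at least 50% of the member was found for 6017 members, from 1982 genes, and for 267 it tied with another gene. Of the 631 members with -ps in their name, 583 had such a parent. For 516 of the 631 the closest match, whether or not it met these limits, had the symbol that stands in the member's name.

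Outside genes, the share of members with counts was higher in each bin of closer likeness to the parent. Among members outside every gene, at least 1 count was found on 5.50% of the 1800 with 80 to 90% identity, 12.98% of the 1109 with 90 to 95%, 27.7% of the 704 with 95 to 98%, 39.9% of the 424 from 98% up to 0.5% short of full identity and 51.0% of the 192 above that. Members inside an opposite-strand gene began higher, and their shares did not go up at each step, at 31.5%, 44.3%, 39.8%, 68.2% and 57.4%. In the opposite-strand class the shares were 34.4%, 35.9%, 57.7%, 77.8% and 64.3%, the last 2 from 18 and 14 members, and among the first 3 bins the share was highest in the third. The same-strand class went from 12.3% to 48.0% and then 37.8%. The median identity in the class neither was 90.3% for members at 0 in every library and 96.0% for those with a count. Of 104 members identical to a parent over their whole length, 60 had counts, and 4 (Gm14303, Rps23-ps1, Gm12751 and Tpt1-ps3) had 10 or more in every library. Rps23-ps1 is in the opposite-strand class and shares 93.2% of its bases with Gm5148 (571, 1325 and 925 counts). The others lie outside every gene.

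**Figure D3:**
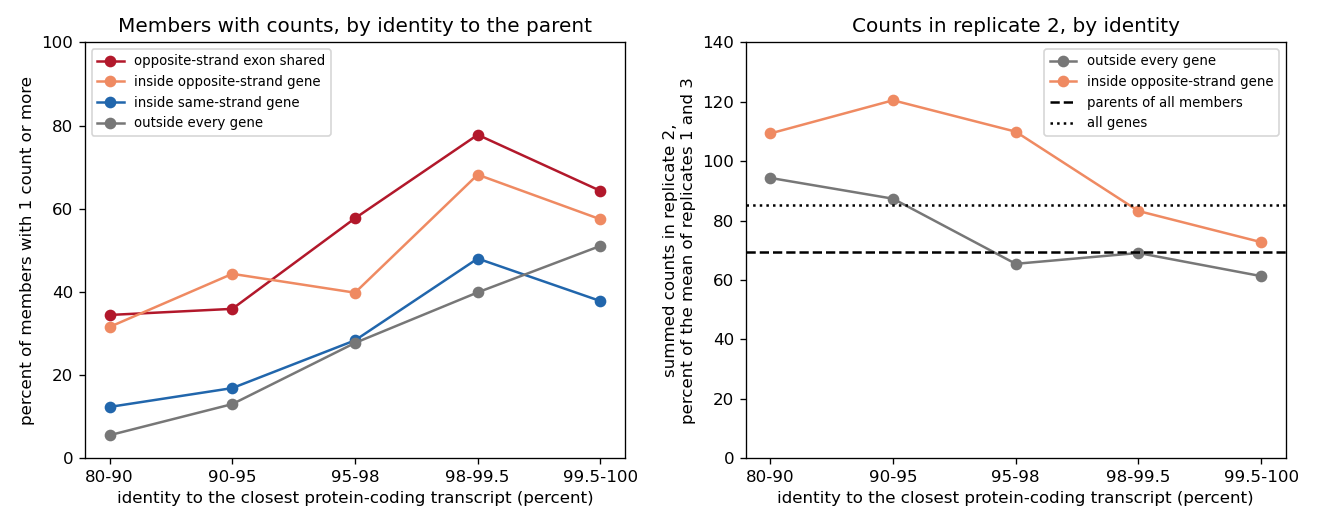
Left, percent of members with at least 1 count by identity to the closest protein-coding transcript, for 4 position groups. Right, summed counts in replicate 2 as a percent of the mean of replicates 1 and 3, for members outside every gene and inside an opposite-strand gene, with lines for the parents of all members and for all genes. Outside genes the left curve goes from 5.50% to 51.0% and the right one from 94.4% to 61.3%, while the parents stand at 69.4%.

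Per kb, the median member outside genes stood below its parent, while opposite-strand members went both ways. For the 72 members with a parent and 10 or more counts in every library, the median log2 ratio of member to parent was -1.35 ± 0.56 (SD over n = 3 libraries), with 25 above and 40 below the parent in every library. It was 0.67 ± 0.75 for the 29 of the opposite-strand class, of which 14 were above and 12 below the parent in every library, -1.80 ± 0.29 for the 19 inside an opposite-strand gene and -2.53 ± 0.06 for the 23 outside every gene. For the opposite-strand class the median was -0.13, 1.36 and 0.78 in replicates 1, 2 and 3, so its sign differed between libraries. Replicate 2 set much of the value pooled over the 72, since their medians were -1.56, -0.72 and -1.78 in the 3 libraries. Without replicate 2, which also changes which members pass, the pooled median was -2.47. Over all members with a parent, most of them at 0, it was -6.06.

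The largest families were those of Gapdh, the glycolytic enzyme gene, with 194 members, and of the ribosomal protein gene Rpl7a with 120. Many copies did not mean many counts. Of the Gapdh copies 60 had counts and 1 had 10 or more in every library, Gm26931 at 12, 21 and 16, beside 2137, 1158 and 1813 on Gapdh. A second set of 112 copies was closest to Gm10358, a Gapdh-like gene with 0 counts in every library, and its highest member was Gm26587 with 93, 66 and 95 counts at 84.1% identity. Of the Rpl7a copies 30 had counts and 2 reached 10, led by Gm17825.

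Hmgb1, a chromatin architectural protein gene with 551, 403 and 599 counts, had 112 copies, 30 with counts and 1 at 10 or more (Gm7890, with 28, 44 and 28 counts). The Rps2 family of 88 had the most members at 10 or more among these 10 families, 4, and summed to 720, 677 and 736 counts, of which Gm10653 alone had 393, 358 and 390. Rpl17, with 56 copies, had 18 with counts and 3 at 10 or more, and Ppia, with 45, had 9 and 1. Rpl29 (92 copies), Rpl21 (91) and Rpl23a (58) had 22, 25 and 10 copies with counts and none at 10 or more in every library, although the parents had at least 1000 counts in each. Their highest members were Gm47399 (6, 8 and 4), Gm9378 (25, 13 and 9) and Rpl23a-ps3 (2, 3 and 6).

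The lists by the parent's role hold only some genes of each role. Copies of the 82 listed ribosomal genes were 1494, of which 28.6% had counts and 23 had 10 or more in every library. Copies of 7 glycolysis genes were 244 (27.9% with counts, 1 at 10 or more), of 10 chromatin protein genes 246 (27.6%, 5), of 13 chaperone and folding genes 95 (22.1%, 2), of 4 RNA-binding protein genes 59 (37.3%, 1) and of 6 translation genes, Tpt1 among them, 51 (27.5%, 1). Copies of 8 cytoskeleton genes were 48 (31.3%) and of 53 cytochrome c oxidase, ATP synthase, ferritin, ubiquitin and other genes 110 (20.9%), with none at 10 or more. In all, 28.0% of the 2347 members of these lists had counts, against 18.1% of the 3670 with another parent. At 10 or more counts in every library the shares were closer, with 33 members (1.41%) against 39 (1.06%). Among those with another parent are Gm6293, a copy of the respiratory chain gene Uqcr10 (30, 27 and 42 counts), and Gm9892, a copy of the initiation factor gene Eif2s2 (16, 12 and 13), both named after their values were seen. Gm6293 is in the opposite-strand class and shares 153 bases (78.5%) with 4930481A15Rik, which had 242, 283 and 243 counts.

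Within these roles the highest copies were few. Of chromatin genes, the nucleolar chaperone gene Npm1 had Gm14681 (42, 20 and 28 counts, 97.4% identity) and the histone chaperone gene Nap1l1 had Gm4204 (40, 16 and 26). The RNA-binding protein gene Hnrnpk had Gm7964 (42, 11 and 23, 99.2%). Hspa8, a constitutive heat shock protein gene, had Gm15459 (23, 24 and 28, 99.7%) in the opposite-strand class, opposite Gm26825 (660, 795 and 809). Ribosomal copies with close identity included Gm15500 of Rpl5 (63, 47 and 74, 100%) and Rpl19-ps11 of Rpl19 (43, 24 and 42, 99.8%). All of these copies except Gm15459 had their lowest raw count in replicate 2, which has the smallest total. Actb, a cytoskeletal actin gene with 4835, 2309 and 3885 counts, has 5 copies, and none of them had a count.

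Members were next compared between libraries, by a chi-square test of each gene against counting error at TMM-scaled library sizes with Benjamini-Hochberg adjustment over the 10216 genes tested. Of 95 members tested 39 varied (41.1%), beside 35.6% of all genes, so the share among members, taken over all classes together, was near the background. Of the 39, 34 were highest in replicate 2 after scaling, and of the 3641 genes that varied 2294 were, which is 22.5% of all genes tested. In the opposite-strand class 17 of 41 members varied with their highest level in replicate 2, beside 1980 of 4321 other genes of that class. Counting any highest library, 18 of 41 members of that class varied (43.9%), beside 53.1% of its other genes. For the class neither it was 20 of 52 members (38.5%), beside 22.6% of other genes. Of these, 15 of 29 inside an opposite-strand gene varied and 5 of 23 outside every gene. The same-strand class had 1 of 2, beside 17.2% of other genes. Scaling moved replicates 1, 2 and 3 by -0.14, 0.25 and -0.05 (log2) relative to total counts. With total counts alone, 20 members varied, beside 51.7% of all genes, and 13 of them were highest in replicate 2. Without replicate 2, 4 of 110 members varied, beside 9.04% of all genes. With the variance of edgeR's common dispersion in place of counting error alone, none of the 95 varied, beside 0.0881% of all genes, and 16 had an unadjusted p under 0.05.

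The members that varied most had their highest level in replicate 2. 4931440P22Rik (chr3:65507257-65529379, minus strand), which shares 223 bases with the 5′ UTR of Tiparp, had 20, 47 and 34 counts beside 17, 5 and 11 on Tiparp, a ratio of 3.70 between its highest and lowest scaled libraries (chi-square test, adjusted p = 4.76e-06). Gm9208 (chrX:107279015-107279962, minus strand), inside the receptor gene Gpr174 (183, 73 and 125 counts), had 15, 28 and 22 counts. Its ratio was 2.94 (chi-square test, adjusted p = 0.0067). Gm7162 (chr17:12819819-12820842, minus strand), inside Airn, a long non-coding RNA of an imprinted locus (5, 7 and 6 counts), had 26, 48 and 35 counts. Its ratio was 2.90 (chi-square test, adjusted p = 7.61e-05). Gm12276 and Gm17825, described above, had ratios of 2.67 and 2.65 (adjusted p = 3.09e-04 and 7.14e-09). With total counts Gm9208 did not pass (adjusted p = 0.061) and the other 4 did, without replicate 1 Gm9208 (adjusted p = 0.132) and Gm12276 (adjusted p = 0.107) did not, and without replicate 2 none of the 5 passed.

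Of the members with the most counts, Gm17040 (adjusted p = 2.86e-52), Fgfr3-ps (4.91e-16), 4930519F09Rik (1.95e-11), Kpna2-ps (5.54e-07) and Gm10653 (1.90e-05) all varied in the chi-square test and were highest in replicate 2 after scaling, with ratios of 1.41 to 1.71. With total counts Gm10653 (adjusted p = 0.51) and Kpna2-ps (0.242) no longer passed, and without replicate 2 only 4930519F09Rik of these 5 did (0.0456). Tpt1-ps3 varied with its lowest level in replicate 2 (adjusted p = 0.044, but 0.051 with DESeq2 size factors, 0.074 with no filter on low counts and 0.864 without replicate 2). Gm27038, Gm13331, Gm13204, Gm5711 and Gm36189 varied too (adjusted p from 2.24e-04 to 0.0201), but none did with total counts (0.0847 to 0.485), while Gm13509 passed with both (0.0015 and 0.0199). B230207O21Rik, Gm12941, Rpl14-ps1 and Gm4617 did not pass (adjusted p = 0.351, 0.255, 0.068 and 0.092), although Rpl14-ps1 did with DESeq2 size factors (0.0377) and Gm4617 with total counts (0.0496).

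**Figure D4:**
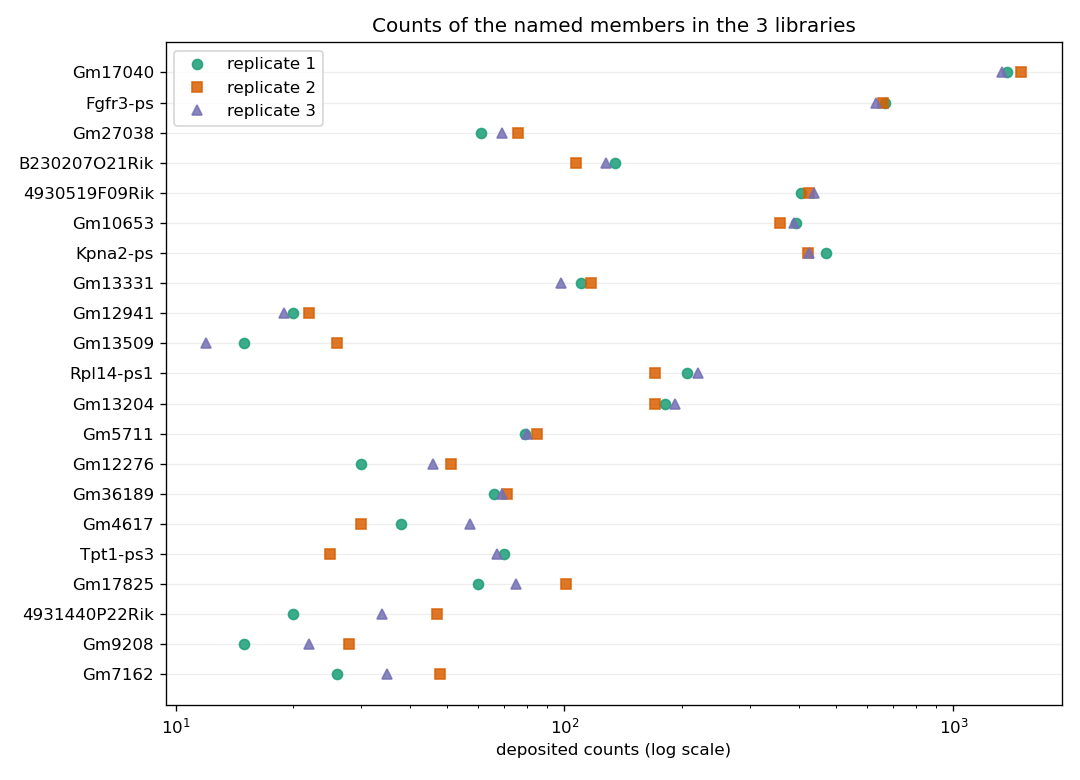
Deposited counts, not scaled to library size, of the named members in replicates 1, 2 and 3 on a log scale. Replicate 2 lies at or above the other libraries for members such as Gm17040 (1494) and Gm17825 (101) although it has the smallest total, and below them for Tpt1-ps3 (25) and Rpl14-ps1 (171). After TMM scaling Tpt1-ps3 was still lowest in replicate 2 (33.1, against 58.9 and 63.4), while Rpl14-ps1 was highest there (226, against 173 and 209).

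Counts in replicate 2 relative to the others also differed by position and identity. Its summed counts were 99.0% of the mean of replicates 1 and 3 in the opposite-strand class, 106% inside an opposite-strand gene, 81.4% in the same-strand class and 74.2% outside every gene, beside 85.1% for all genes and 69.4% for the parents of all members. Genes that are not members differed by class too, at 95.4% (opposite-strand), 72.3% (same-strand) and 61.8% (neither), so this difference is not particular to the pseudogenes. In the class neither, members with 98% identity or more stood at 70.2% and their own parents at 70.4%. Members with 90 to 98% stood at 98.1%, those with 80 to 90% at 104% and those without a parent at 106%. The bin of 90 to 98% was not uniform, with 108% for 90 to 95% and 78.2% for 95 to 98%. Outside every gene, the bins from 80 to 90% upward stood at 94.4%, 87.4%, 65.4%, 69.1% and 61.3%. Inside an opposite-strand gene they stood at 109%, 121%, 110%, 83.2% and 72.7%. The sum outside every gene was lower in replicate 2 by CPM (587, against 686 and 659) and higher by TMM scaling (2290, against 2053 and 2102), so its direction depends on the scaling. The sum of the opposite-strand class was highest in replicate 2 under both, at 1962 CPM against 1656 and 1717. The part of read pairs from the parent or from the opposite gene in these counts was not tested.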

How the data were processed

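RNA-seq counts of 3 libraries of Th1 cells were analysed. Per the file headers, the authors made the deposited counts by summing exons of a gene (GENCODE M13) with featureCounts 1.4.6-p4, for pairs with both ends aligned, with strand option 1 and with no option that counts pairs of several alignments or genes. The build is mm10 per the labels, and the alignment's name in the header holds star2 and 24hr. The exon lengths used are those deposited beside the counts. Symbols, biotypes and transcripts came from GENCODE M21, which matched 50376 of the gene identifiers and left 224 without a match.

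CPM per kb was computed from total counts and exon length. Parents were the best protein-coding match by blastn 2.17.0 (same strand, E at most 1e-10). Library sizes for the chi-square test (2 degrees of freedom, genes passing filterByExpr, threshold 0.05) were TMM-scaled with edgeR 4.0.16 in R 4.3.3, and DESeq2 1.42.0 gave other size factors. The test and the position classes were tested on simulated data. Python 3.11.15, numpy 2.4.6, pandas 2.3.3 and scipy 1.17.1 were used.

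Named are up to 8 members per class with the highest level among those with 10 or more counts in every library, the 5 with the largest ratio between libraries (mean of 20 counts or more), the 10 largest families and a parent list with the highest member of each, and the 5 members with 1000 or more counts. Of the parent list, examples named beyond this were chosen after their values were seen. Members and lists were chosen with earlier results of these data known. Libraries were left out in turn, and thresholds, scalings and class rules varied.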

Additional observations from a re-analysis of the deposited data

How the results depend on the processing

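No paired analysis was possible because there is 1 group. With 3 counts in every library as the threshold, 246 members passed (15 same-strand, 181 neither), and with 30 counts 36 did (21 opposite-strand, 0 same-strand, 15 neither). Placing members in the same-strand class first gave 5 same-strand members and 0.0135% of all counts. The 51 members of the class neither split into 28 inside an opposite-strand gene and 23 outside every gene, a split added after seeing the data. The share of all counts was 0.324% (opposite-strand 0.178%, same-strand 0.0083%, neither 0.138%). Without the transcribed biotype it was 0.229% (0.0990%, 0.0076% and 0.123%), and per kb (TPM) 0.786% (0.341%, 0.0305% and 0.415%). Leaving out 1 library in turn gave 102 to 114 members with 10 or more counts and 3 to 5 in the same-strand class, whose number was 2 with all libraries.

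The number of members that varied was 39 (41.1%, beside 35.6% of all genes). It was 20 with total counts (21.1%, beside 51.7%) and 18 with each class scaled to its own sum (18.9%, beside 51.7%). With 1 library left out it was 26 without replicate 1 (25.2%, beside 24.4%) and 39 without replicate 3 (38.6%, beside 37.0%). It was lowest without replicate 2, at 4 (3.64%, beside 9.04%). With edgeR's common dispersion 0 members passed, 16 at an unadjusted p under 0.05 (48 in the test as reported), and 9 of all genes passed. Of the 39 members, 18 were shared with the calls by total counts and 4 with those without replicate 2. The median log2 ratio to the parent was -6.06 over all members with a parent, -2.47 in no opposite-strand gene, and -2.47 to -1.47 with 1 library left out. The ratio to the opposite-strand partner was 0.85 over the whole class and 3.46 to 3.84 with 1 library left out. The causes of these shifts were not tested. Among the 21 members named for level or variation, the test's call was lost for 8 with total counts, 10 with class scaling, 17 with the common dispersion and 16 without replicate 2. None of these results reversed its direction, but others did. The sum of members outside every gene was lower in replicate 2 by CPM (587, against 686 and 659) and higher by TMM scaling (2290, against 2053 and 2102). The median ratio of opposite-strand members to their parents was negative in replicate 1 and positive in replicates 2 and 3. So was the median ratio of members inside an opposite-strand gene to that host. Counts of 3 or fewer, on 1100 of the 1532 members with counts, cannot show a difference between libraries at this depth.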

Other observations

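Several further members with many counts, picked after their values were seen, are copies of cell cycle, nucleolar and immune genes. Gm16042 (chr6:8595743-8596989), a copy of the cell cycle gene Fbxo5 at 93.98% identity, had 277, 308 and 309 counts (73.3 ± 10.7 CPM per kb), while Gm45062, whose 3′ UTR covers it on the other strand, had none. Gm5812 (chr17:6121208-6122164), a copy of Fbl, the gene of the nucleolar methyltransferase fibrillarin, had 239, 204 and 240 counts (72.4 ± 2.07 CPM per kb) and lies opposite Tulp4 (455, 336 and 404). Gm5831 (chr9:42964872-42966080), a copy of the nuclear body gene Sp140 at 98.8% identity, had 108, 99 and 107 counts opposite the 3′ UTR of Arhgef12 (54, 24 and 40).

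Copies of 2 unrelated genes lie side by side opposite the same 3′ UTR, that of the zinc transporter gene Slc30a7 (138, 82 and 95 counts). Gm43106 (chr3:115942482-115943118), a copy of Sugt1, had 118, 103 and 97 counts (50.7 ± 5.00 CPM per kb), and Gm6649 (chr3:115943097-115944261), a copy of the transcription factor gene Elf1, had 181, 167 and 168 counts (45.1 ± 3.16 CPM per kb). Their ranges overlap at the ends.

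Outside every gene, Prkcz2 (chr7:27882755-27884510), 98.6% identical to the protein kinase C gene Prkcz, had 144, 154 and 126 counts (24.7 ± 4.47 CPM per kb), and Plk-ps1 (chr5:35554184-35555970), a copy of the mitotic kinase gene Plk1 at 93.4% identity, had 123, 84 and 90 (16.8 ± 2.32 CPM per kb).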
